A study of Arabidopsis thaliana with 12 samples.

Results

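Seedlings of the tor line kept without glucose were compared with wild-type (WT) seedlings kept without glucose, over 6 of the 12 arrays of the study. The 6 arrays were chosen by their labels: 3 are labelled as the tor mutant without treatment and 3 as wild type (Col) without treatment. Each array measured total RNA of whole Arabidopsis thaliana seedlings with probe sets, groups of short probes that report 1 transcript. The WT group was Col-0. The tor group carried an estradiol-inducible RNAi construct against tor (RNAi-tor), and no source used here says if estradiol was given to WT as well, so the inducer and the construct cannot be told apart. Both groups were 3 days old and grew in 6-well plates of liquid 0.5 x MS medium at 22 °C, under 75 uE of light and a 12 h photoperiod. Both are recorded with 0 mM glucose over a treatment time of 2 h. The other 6 arrays held the same genotypes after 2 h with 15 mM glucose. They enter the second quantile normalization and the fit's estimate of the spread, and so every SE, adjusted p and call below. Apart from that they are used to set the same genes side by side. The labels call the replicates biological. They do not say how many RNAi lines were used, nor how many seedlings were pooled for an array.

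TOR is a protein kinase that works in a complex with RAPTOR and LST8. In plants, as in yeast and animals, it promotes ribosome production, translation and cell proliferation when sugar and other nutrients are at hand, and it holds back autophagy. In a young seedling that has used its seed reserves, glucose from photosynthesis or from the medium is a main signal to the kinase. No probe set used here carries the name of TOR, and the targeted gene could therefore not be read in any array. A marker of green tissue was bright in both groups: rubisco activase, RCA, read 13.96 to 13.99 on the log2 scale in the WT arrays and 13.36 to 13.59 in the tor arrays.

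Without glucose, tor seedlings held more mRNA of both RAPTOR genes and of 6 of 16 autophagy probe sets, and less mRNA of 18 of 106 listed cytosolic ribosomal protein genes, with 0 of the 106 higher. Of 14 SWEET sugar transporters 5 were lower and 1 was higher, and of 17 CC-type glutaredoxins 8 were lower and 2 were higher. Of the 2 measured root hair genes, the expansin EXPA7 was lower and EXPA18 did not pass. Glutathione S-transferases went both ways, with 5 of 12 higher and 3 lower. Of 47 UDP-glycosyltransferases 11 were higher and 3 were lower. These counts stand beside 13.5% of all probe sets higher and 8.35% lower in tor. The gene with the largest difference, AT5G59845, lay near the dark end of the scale in WT and was bright in tor.

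Of 22746 probe sets tested, 6408 (28.2%) differed between the genotypes at an adjusted p under 0.05 (limma on the log2 values as deposited, Benjamini-Hochberg over all probe sets). Of these, 4438 (19.5%) were higher in tor and 1970 (8.66%) were lower. The deposited values were not on equal footing between the genotypes. The medians of the arrays lay at 6.53, 6.58 and 6.54 in WT and at 6.80, 6.82 and 6.76 in tor, so every tor array had a higher median than every WT array. After a second quantile normalization, which gives all arrays the same distribution, 6130 probe sets (26.9%) were called, 3110 (13.7%) higher and 3020 (13.3%) lower. The share of higher calls thus went from 69.3% to 50.7%. With each array only centred on its median it was 33.0%.

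**Figure D1:**
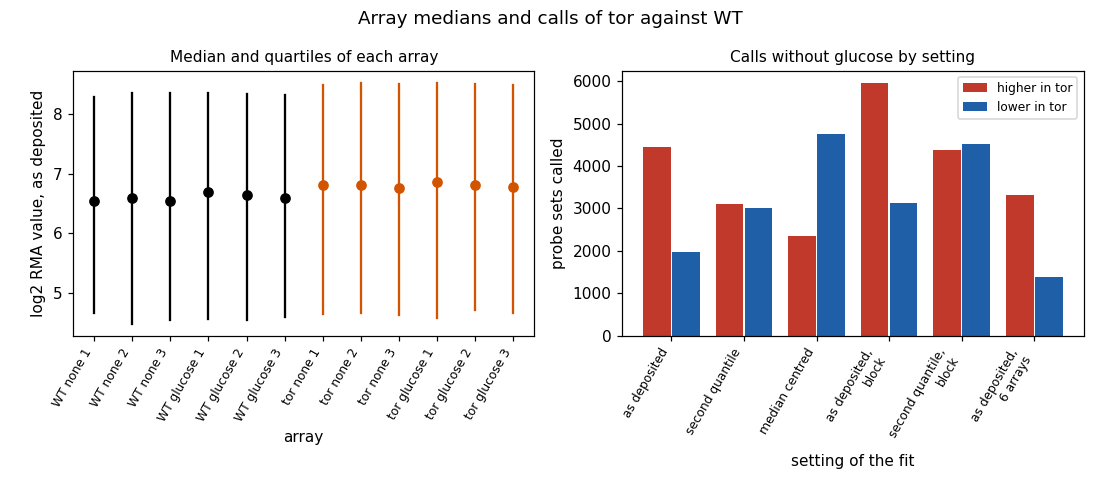
Left, the median (point) and quartiles (line) of the log2 RMA values of each of the 12 arrays as deposited, with WT in black and tor in orange; right, the number of probe sets called higher (red) or lower (blue) in tor without glucose in 6 settings of the fit. The 3 WT medians without glucose lie at 6.53 to 6.58 and the 3 tor medians at 6.76 to 6.82, and the balance of higher and lower calls goes from 4438 against 1970 as deposited to 2344 against 4759 with median centring.

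The centre of all differences moved with the normalization. The median difference over all probe sets was 0.08 as deposited, -0.02 after the second quantile normalization and -0.16 after centring. As deposited it was 0.19 for probe sets with a mean level of 7 to 9 and -0.20 for those of 11 or more, where it was -0.06 after the second quantile normalization. The sign turned between these normalizations for 2603 probe sets (11.4%), and 0 were called in opposite directions. A gene is therefore described below as higher or lower only where it was called the same way in both normalizations. That holds for 4968 probe sets (21.8%), 3069 of them higher (13.5%) and 1899 lower (8.35%). Counts of list members below stand beside these shares. At least 2-fold in both normalizations were 1058 higher and 627 lower probe sets, and at least 8-fold were 58 and 36.

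**Figure D2:**
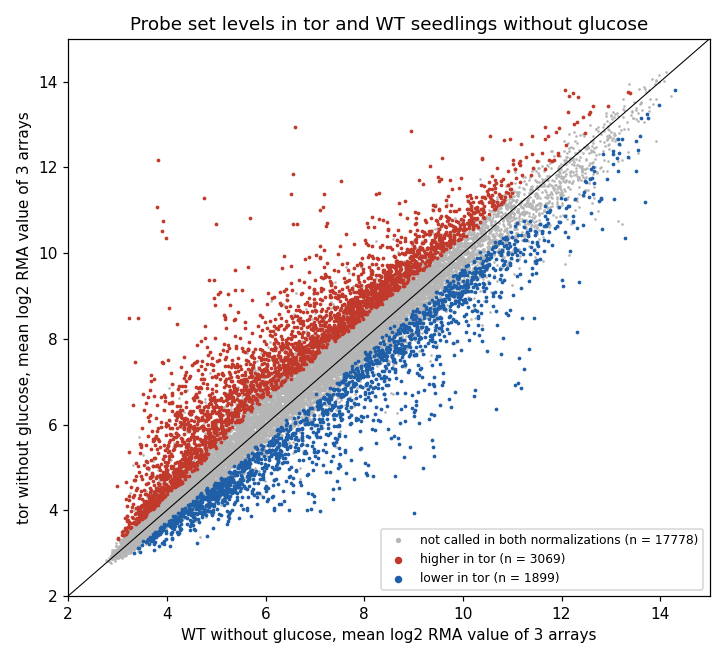
Mean log2 RMA value as deposited in the 3 tor arrays (vertical axis) against the 3 WT arrays (horizontal axis) without glucose, 1 point per probe set. The 3069 probe sets called higher in tor in both normalizations are red, the 1899 called lower are blue, and a group of red points stands at high tor levels where WT lies under 5.

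The number of calls depended on single arrays. Without tor array 2, 3069 probe sets were called higher and 1204 lower on the deposited values, and without tor array 3 they were 3316 and 1295. Without tor array 1, they were 4550 and 2306. Tor array 1 was the tor array nearest to the WT mean for 58.2% of the probe sets called higher in both normalizations and for 50.7% of those called lower. Same-numbered arrays deviated together, and a fit with this number as a block called 9071 probe sets (39.9%), 5949 higher (26.2%) and 3122 lower (13.7%). After the second quantile normalization the blocked fit called 8893 (39.1%), 4374 higher (19.2%) and 4519 lower (19.9%). Blocked counts of list members below stand beside these shares. No share of all probe sets called in both normalizations is given for the block or with an array left out.

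Both RAPTOR genes, which encode the TOR partner that recruits its substrates, were higher in tor. RAPTOR1 read 8.55, 8.62 and 9.08 in the 3 WT arrays and 9.68, 10.05 and 10.65 in the 3 tor arrays. Every tor array lay above every WT array, and the difference on the log2 scale was 1.38 ± 0.28 (SE, n = 3 per group), with an adjusted p of 0.0052 as deposited and 0.00992 after the second quantile normalization. RAPTOR2 read 6.30, 5.66 and 5.13 in WT and 6.98, 7.26 and 7.20 in tor. Here too the groups did not overlap, and the difference was 1.45 ± 0.23, with an adjusted p of 0.00134 as deposited and 0.00508 after the second quantile normalization. These were the only 2 of 13 listed TOR pathway genes with a named probe set. Of all probe sets, 41.5% did not overlap between the groups as deposited, and 41.3% did not after the second quantile normalization.

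Autophagy takes up cell contents into vesicles for breakdown in the vacuole, and ATG8 proteins coat the membrane of these vesicles. Of 16 autophagy probe sets of 15 genes, 6 were higher in both normalizations and 0 were lower. Their median difference was 0.50 as deposited and 0.37 after the second quantile normalization, against 0.08 and -0.02 over all probe sets. ATG8A read 8.95, 9.37 and 9.18 in WT and 9.75, 10.14 and 10.42 in tor, a difference of 0.94 ± 0.19 (adjusted p = 0.00529). ATG8I read 10.23, 10.47 and 10.45 in WT and 10.89, 11.32 and 11.30 in tor, a difference of 0.79 ± 0.14 (adjusted p = 0.00255). For both genes all tor arrays lay above all WT arrays, with tor array 1 the lowest of the tor arrays.

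ATG8G differed by 0.86 ± 0.18 (adjusted p = 0.00643 as deposited and 0.0212 after the second quantile normalization). After the second quantile normalization its call was lost without any 1 of 4 arrays (WT 1, WT 3, tor 2 and tor 3), with a highest adjusted p of 0.071. ATG3, which joins ATG8 to its lipid anchor, was also higher, by 0.65 ± 0.16. The other higher members, AT3G59950 and AT3G61960, carry no symbol in the sources used here. AT3G59950 read 7.83, 7.65 and 7.79 in WT and 8.38, 8.77 and 8.59 in tor, a difference of 0.82 ± 0.13. The largest difference of the list, 1.14 ± 0.33 for ATG8H, passed as deposited (adjusted p = 0.026) and missed after the second quantile normalization (adjusted p = 0.0554). ATG8E and ATG8F lay at -0.24 and -0.17 and did not pass. With 1 array left out, between 4 and 8 members were higher in both normalizations, and 8 were without tor array 1.

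Ribosomal proteins make up the ribosome together with its RNA. Of 106 cytosolic ribosomal protein genes with a named probe set, 18 were lower in both normalizations and 0 were higher. The locus numbers of this list were written down from general knowledge after the data had been seen, since 105 of the 106 carry no symbol in the sources used here. The median level of the 106 genes was 11.08, 10.89 and 10.75 in the WT arrays and 10.85, 10.09 and 9.82 in the tor arrays. Tor array 1 thus lay within the range of the WT arrays, and tor arrays 2 and 3 lay below it. The median difference was -0.53 as deposited and -0.48 after the second quantile normalization. Most of these genes are bright, though their WT means ran from 3.35 to 13.32. All probe sets with a mean level of 9 to 11 had a median difference of 0.08 as deposited and 0.01 after the second quantile normalization. Those of 11 or more had -0.20 and -0.06.

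The number of lower ribosomal protein genes rested on tor array 1 more than on any other array. Without it, 64 of the 106 were lower in both normalizations and 1 was higher. Without any other of the 6 arrays, 4 to 8 were lower. With the replicate number as a block, 46 were lower in both normalizations and 1 was higher. Lower calls over all probe sets without tor array 1 numbered 2306 as deposited and 3480 after the second quantile normalization. With all arrays they numbered 1970 and 3020. With the block 13.7% and 19.9% of all probe sets were lower in these normalizations. AT4G39200 and AT2G41840 were lower in every one of these settings. AT4G39200 read 11.91, 11.99 and 12.02 in WT and 11.30, 10.59 and 10.31 in tor, a difference of -1.24 ± 0.25 (adjusted p = 0.00506). AT2G41840 read 12.40, 12.54 and 12.40 in WT and 11.83, 11.36 and 11.11 in tor, a difference of -1.02 ± 0.21 (adjusted p = 0.00538). In both genes the WT arrays lay close together and the tor arrays were spread, with tor array 1 nearest to WT. The ribosomal protein gene PGY1 differed by -0.62 ± 0.22 and did not pass (adjusted p = 0.0554). With the block it passed in both normalizations (adjusted p = 0.00853 and 0.0283).

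Ribosomes are assembled in the nucleolus by a further set of factors. Of 11 listed ribosome biogenesis genes, 1 was higher and 1 was lower, and the median difference was 0.13 as deposited and -0.03 after the second quantile normalization, a sign that turned. With the block 2 were higher and 1 was lower. DIM1A, which methylates ribosomal RNA, read 8.86, 9.01 and 9.32 in WT and 8.44, 8.07 and 8.09 in tor, a difference of -0.86 ± 0.18 (adjusted p = 0.00491). The higher member, AT3G15460, read 5.66, 5.26 and 4.95 in WT and 7.02, 6.63 and 6.68 in tor, a difference of 1.49 ± 0.19 (adjusted p = 0.000347). With glucose its order turned: WT read 8.71, 8.83 and 9.03 and tor 7.27, 7.26 and 6.90.

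Few cell cycle genes were named on these arrays, and 0 of 2 S phase genes and 0 of 3 mitosis genes were called in both normalizations. ICU2, which encodes the polymerising subunit of DNA polymerase alpha, was low in both groups, at 5.60, 5.02 and 5.41 in WT and 5.03, 4.15 and 4.50 in tor. It was called only after the second quantile normalization (-0.95, adjusted p = 0.0402, against 0.0721 as deposited), and there the call was lost without any 1 of 4 arrays. With the block it passed in both (adjusted p = 0.0471 and 0.0259). The mitotic kinase AUR3 differed by -0.87 ± 0.37 as deposited (adjusted p = 0.106) and by -1.09 after the second quantile normalization (adjusted p = 0.047), where 5 of the 6 arrays were needed for the call. With the block AUR3 passed in both (adjusted p = 0.00885 and 0.00283). With the block, and also without tor array 1, 2 of the 3 mitosis genes were lower in both normalizations. With tor array 1 left out 1 of the 2 S phase genes was lower in both. In RNA of whole seedlings, fewer cells of a type and less RNA per cell cannot be told apart.

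Sugar starvation genes are induced in plants when carbon runs out, and many serve the breakdown of amino acids. Of 11 probe sets of 10 such genes, 1 was higher and 2 were lower, and without WT array 3 there were 0 in either direction. BZIP53, a transcription factor of the starvation response, differed by 0.70 ± 0.20 (adjusted p = 0.0259), and AKINBETA1, a regulatory subunit of the SnRK1 energy kinase, by -1.14 ± 0.34 (adjusted p = 0.0292). Both calls were lost as deposited without any 1 of 4 arrays, with highest adjusted p of 0.0949 and 0.0809, and that of AKINBETA1 after the second quantile normalization without any array but tor array 3 (highest adjusted p = 0.104). The glutamine amidotransferase GAT1_2.1 has a pair of probe sets that disagree in their call. The dimmer read 6.63, 6.63 and 6.98 in WT and 4.65, 6.11 and 5.86 in tor, a difference of -1.21 ± 0.32 (adjusted p = 0.0162, and 0.056 without WT array 3). The brighter read 10.30, 10.98 and 11.66 in WT and 8.22, 10.66 and 11.17 in tor and did not pass (-0.96 ± 0.70, adjusted p = 0.336). Tor array 1 was the lowest array for both, and the 3 leucine breakdown genes MCCA, MCCB and IVD did not pass, at -1.14, -0.89 and -0.48.

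Genes of seed reserve use, seed storage and late embryogenesis went different ways. Isocitrate lyase, ICL, a key enzyme of the glyoxylate cycle by which seedlings turn stored lipid into sugar, was lower in tor: it read 12.24, 12.50 and 12.54 in WT and 11.84, 11.05 and 11.18 in tor. The difference was -1.07 ± 0.24 (adjusted p = 0.00711), and after the second quantile normalization the call was lost without tor array 2 or 3 (highest adjusted p = 0.064). AIM1, an enzyme of fatty acid beta-oxidation, was higher by 1.05 ± 0.25 (adjusted p = 0.0115). After the second quantile normalization its call needed WT array 1, tor array 2 and tor array 3 (highest adjusted p = 0.0614). The vicilin-like seed storage gene PAP85 read 5.89, 7.45 and 8.76 in WT and 4.30, 4.30 and 4.22 in tor. Its WT arrays spread widely and its tor arrays lay together near the dark end of the scale, with a difference of -3.09 ± 0.54 (adjusted p = 0.002). LEA4-5, a protective protein of late embryogenesis, was higher by 1.32 ± 0.18 (adjusted p = 0.000458). It read 4.60, 4.39 and 4.75 in WT, near the dark end of the scale, and 5.57, 5.93 and 6.19 in tor.

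Of 6 photosynthesis genes, 1 was higher and 1 was lower. RCA, which activates rubisco, read 13.99, 13.96 and 13.97 in WT and 13.59, 13.42 and 13.36 in tor. The WT arrays were almost equal and all 3 tor arrays lay below them, a difference of -0.51 ± 0.09 (adjusted p = 0.00238). The antenna protein gene LHCB4.2 was higher by 0.70 ± 0.22 (adjusted p = 0.0356), a call that was lost as deposited without any array but WT array 2 (highest adjusted p = 0.115). SBPASE and PRK, enzymes of the Calvin cycle, lay at -1.09 and -0.45 and did not pass. With the block 3 of the 6 genes were lower in both normalizations. SDH1-1, a subunit of mitochondrial succinate dehydrogenase, was the 1 called of 5 probe sets of glycolysis and the TCA cycle, with a difference of 0.72 ± 0.11 (adjusted p = 0.00128). The reference genes PEX4 and GAPC2 differed by -0.14 and -0.08 and did not pass.

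SWEET proteins carry sugars across membranes. Of 14 SWEET genes, a family picked after the data had been seen, 5 were lower and 1 was higher. SWEET11, which loads sucrose for export from leaves, read 11.59, 11.30 and 11.32 in WT and 9.67, 9.57 and 9.70 in tor, a difference of -1.76 ± 0.19 (adjusted p = 0.000114). SWEET2 read 9.17, 9.83 and 9.24 in WT and 5.49, 7.61 and 7.60 in tor, a difference of -2.51 ± 0.60 (adjusted p = 0.0104). In both genes the groups were well apart, and tor array 1 was the lowest of all for SWEET2. SWEET16 and SWEET17, transporters of the vacuole membrane, were lower by -1.36 ± 0.34 and -1.13 ± 0.22. SWEET10 was the higher member, at 4.88, 4.78 and 4.90 in WT and 5.97, 6.70 and 6.76 in tor. With the block 8 of the 14 were lower in both normalizations. Of all probe sets 13.7% were lower with the block as deposited and 19.9% after the second quantile normalization.

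Expansins loosen the cell wall during growth. Of 19 expansin genes, 3 were lower and 1 was higher, and 2 were higher with the block, without WT array 1 or without tor array 1. EXPA7, an expansin of root hair cells, read 7.54, 6.53 and 6.44 in WT and 4.97, 4.73 and 4.77 in tor, a difference of -2.01 ± 0.26 (adjusted p = 0.000394). EXPA18, also of root hairs, was low in both groups (means of 5.14 in WT and 5.47 in tor). It differed in the other direction, by 0.33, and did not pass. EXPA16 was lower by -1.70 ± 0.23 and EXPA4 by -1.03 ± 0.27, and the call of EXPA4 as deposited was lost without WT array 1 or 3 (highest adjusted p = 0.0641). The expansin-like gene EXLA1 went the other way, at 8.31, 9.73 and 9.96 in WT and 11.38, 12.37 and 12.32 in tor, a difference of 2.69 ± 0.44 (adjusted p = 0.00146). Of 10 xyloglucan endotransglucosylase genes, whose enzymes rejoin wall polymers, XTH16 and XTH19 were higher and XTH20 was lower. XTH16 differed by 1.25 ± 0.29, XTH19 by 0.84 ± 0.23 and XTH20 by -0.98 ± 0.28, and the calls of XTH19 and XTH20 needed 4 and 3 of the 6 arrays as deposited (highest adjusted p = 0.0859 and 0.0768). The call of XTH19 after the second quantile normalization was lost without any array but tor array 1 (highest adjusted p = 0.124). Without tor array 1 the list held 4 higher members, and without any other array 1. It held 0 lower members without WT array 1, WT array 2 or tor array 1.

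Glutathione S-transferases join glutathione to toxic compounds. Of 12 such genes, 5 were higher and 3 were lower. GSTU25 read 4.23, 4.21 and 4.15 in WT and 6.08, 6.34 and 6.33 in tor, a difference of 2.06 ± 0.24 (adjusted p = 0.000203). GSTU22 and GSTU23 were higher by 1.81 ± 0.19 and 1.54 ± 0.36. GSTU18 was lower, at 8.32, 8.41 and 7.94 in WT and 6.75, 6.48 and 5.48 in tor, a difference of -1.98 ± 0.38 (adjusted p = 0.0034). The family thus held clear differences in both directions, and without WT array 3 or tor array 2 the higher members numbered 3.

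UDP-glycosyltransferases attach sugars to small molecules. Of 47 UGT genes, a family picked after the data had been seen, 11 were higher and 3 were lower. UGT74B1, which adds glucose in glucosinolate synthesis, read 8.22, 7.76 and 7.84 in WT and 9.47, 9.32 and 9.72 in tor, a difference of 1.56 ± 0.16 (adjusted p = 0.000109). UGT71C1 and UGT71C2 differed in opposite directions, by 1.73 ± 0.21 and -1.81 ± 0.21. Without tor array 1 the higher members numbered 17, and without tor array 2 or 3 they numbered 7. With the block 13 were higher and 7 lower in both normalizations. Of all probe sets 26.2% were higher and 13.7% lower with the block as deposited. After the second quantile normalization these shares were 19.2% and 19.9%. In the flavonoid list AT4G14090 was the 1 called of 6 probe sets (2 with the block), at 4.59, 4.33 and 4.52 in WT and 6.87, 5.60 and 5.48 in tor (adjusted p = 0.0146). Its call after the second quantile normalization was lost without WT array 2 (adjusted p = 0.0555).

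Cytochrome P450 enzymes oxidise many plant metabolites, and of 24 named genes 4 were higher and 0 were lower. The higher count lay near the 13.5% of all probe sets that were higher, and 8.35% of all probe sets were lower. The median difference of the list was 0.15 as deposited and 0.10 after the second quantile normalization. CYP71B26 read 7.53, 8.95 and 7.97 in WT and 9.69, 10.48 and 10.35 in tor, a difference of 2.02 ± 0.42 (adjusted p = 0.00563). CYP71B6 and CYP51G2 were higher by 1.53 ± 0.28 and 1.29 ± 0.18, and CYP71B5 by 0.62 ± 0.14, with a call that needed 4 of the 6 arrays after the second quantile normalization (highest adjusted p = 0.132).

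**Figure D3:**
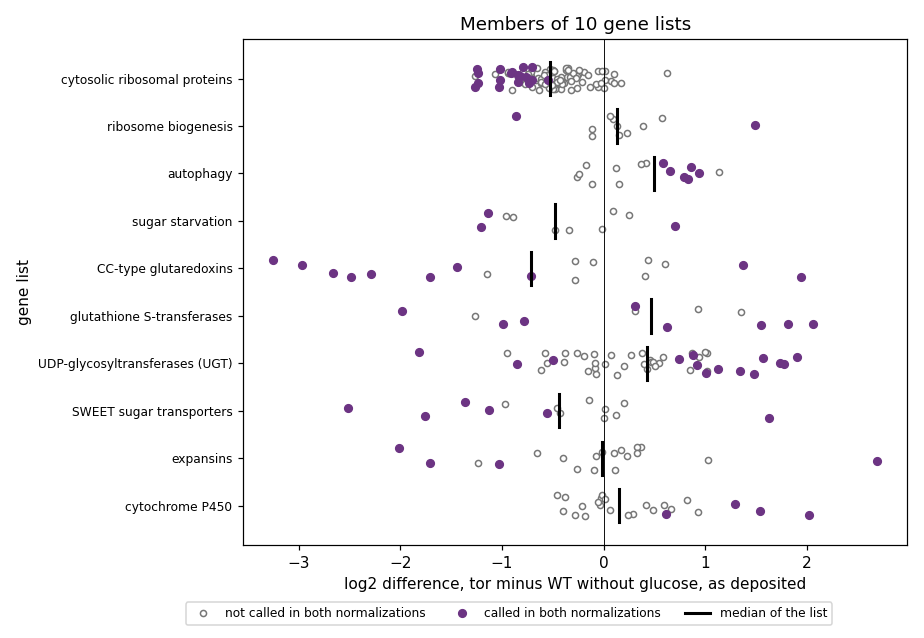
Log2 difference between tor and WT without glucose as deposited (horizontal axis) for each member of 10 gene lists (vertical axis, points spread for legibility). Filled points were called in both normalizations, open points were not, and the black bars are list medians: 18 of 106 ribosomal protein genes are called, 0 of them to the right of 0, and 6 of 16 autophagy probe sets are called, 0 of them to the left.

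Glutaredoxins pass electrons from glutathione to their targets, and the CC type is particular to land plants. Of 17 CC-type genes, 8 were lower and 2 were higher. The list was picked after the data had been seen, and 14 of its members carry no symbol in the sources used here. ROXY2, known for a role in anther development, read 7.90, 8.10 and 8.18 in WT and 5.03, 4.65 and 4.75 in tor, a difference of -3.25 ± 0.20 (adjusted p = 3.34e-06). The members AT4G15660, AT4G15680, AT4G15690 and AT4G15700, which neighbour each other on chromosome 4 at most 2 genes apart, were lower by -2.48, -2.66, -2.29 and -2.97. GRX480, induced by salicylic acid, was higher by 1.37 ± 0.39 (adjusted p = 0.0253). Its call was lost in both normalizations without any array but tor array 1 (highest adjusted p = 0.0955 as deposited and 0.164 after the second quantile normalization), and the list held 1 higher member without WT array 2, WT array 3 or tor array 2. The same 8 members were lower in both normalizations with any 1 of the 6 arrays left out.

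Transcription factors and defence genes gave single calls. Of 7 WRKY factors, ZAP1 and WRKY20 were higher and WRKY22, known from immune signalling, was lower. ZAP1 differed by 0.95 ± 0.17 (adjusted p = 0.00218), WRKY20 by 0.61 ± 0.14 and WRKY22 by -1.26 ± 0.36. WRKY22 needed 4 of the 6 arrays for its call as deposited (highest adjusted p = 0.0689), and WRKY20 needed 5 after the second quantile normalization (highest adjusted p = 0.155). The plant defensin PDF1.2 read 5.14, 5.25 and 5.36 in WT and 3.90, 3.72 and 3.83 in tor, a difference of -1.44 ± 0.38 (adjusted p = 0.0174), lost as deposited without WT array 3 or tor array 2 (highest adjusted p = 0.0563). STZ, a zinc finger repressor that responds to handling and other stresses, read 7.35, 8.36 and 6.18 in WT and 8.13, 9.39 and 9.81 in tor. Its groups overlapped, and it passed as deposited (1.81 ± 0.58, adjusted p = 0.0381) and missed after the second quantile normalization (adjusted p = 0.0623, and 0.0217 with the block). As deposited its call was lost without any 1 of 4 arrays (highest adjusted p = 0.131).

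Among the 4 measured heat shock genes 0 passed, and AT5G37670, with the smallest p, differed by 0.89 ± 0.54 (adjusted p = 0.247, and 0.0425 as deposited with the block). The clock gene GI differed by 0.41 ± 0.29 and did not pass. The senescence gene SAG29 passed as deposited (0.61 ± 0.21, adjusted p = 0.0485) and missed after the second quantile normalization (adjusted p = 0.177), and its call as deposited needed 5 of the 6 arrays. Of 5 histone genes 0 passed, with MGH3 nearest at 0.41 ± 0.15 (adjusted p = 0.0683, and 0.041 as deposited with the block), and with the block 2 were higher in both normalizations. MGH3 lay near the dark end of the scale in both groups, with means of 4.34 in WT and 4.75 in tor. ALATS and RPN12a, the only members found for the aminoacyl-tRNA synthetases and the proteasome, differed by 0.09 and 0.18 and did not pass. Nitrogen assimilation and the root meristem had 0 members with a named probe set.

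Of the 10 named genes with the highest differences, all but AT5G02540 had a WT mean under 5, near the dark end of the scale, and a tor mean of at least 8. No fold is given for them, since no source used here says if such low values lie above background. AT5G59845 read 4.34, 3.69 and 3.47 in WT and 12.06, 12.17 and 12.32 in tor, a difference of 8.35 ± 0.22 (adjusted p = 5.66e-09). Next came AT1G56710, at 3.82, 3.88 and 3.71 in WT and 10.79, 10.97 and 11.45 in tor, a difference of 7.27 ± 0.17. AT3G13672, for which RefSeq lists the name SINA2, read 4.08, 3.75 and 3.91 in WT and 10.74, 10.62 and 10.86 in tor, a difference of 6.83 ± 0.17. In these genes the spread within a group was far smaller than the gap between the groups, which the rule that named them favours. AT1G71470, AT2G34930, AT1G33320, AT3G07070 and AT5G02540 followed, with differences of 6.61, 6.54, 6.37, 5.68 and 5.28. AT5G02540 was not dark in WT, at 6.39, 6.89 and 6.41. Their locus numbers are given because the sources used here annotate no function for them.

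AT5G59530 and AT1G26390 differed by 5.26 ± 0.53 and 5.08 ± 0.97, with wider spread in tor. AT1G26390 read 3.52, 3.27 and 3.44 in WT and 6.20, 8.87 and 10.39 in tor. Tor array 1 again lay nearest to WT, and the groups did not overlap, as the rule that named the gene required. Its neighbours on chromosome 1, AT1G26380 and AT1G26410, at most 2 genes away, were higher by 4.68 ± 0.87 and 3.14 ± 0.72. AT1G26390 stands in a list of 22 measured berberine bridge enzyme-like oxidase genes, picked after the data had been seen. Of these 4 were higher and 5 were lower, beside 13.5% and 8.35% of all probe sets. The serine carboxypeptidase-like gene scpl48, singled out after its values were seen, read 7.56, 7.28 and 6.69 in WT and 11.52, 11.31 and 11.30 in tor, and was 18.4-fold higher in tor (adjusted p = 1.64e-06). In all, 18 probe sets called higher had a WT mean under 5 and a tor mean of at least 8, and 6 called lower had the reverse.

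The 10 lowest named genes differed by -4.19 to -3.25. AT4G07820 read 8.78, 9.84 and 8.93 in WT and 5.10, 4.96 and 4.91 in tor, a difference of -4.19 ± 0.23 (adjusted p = 1.95e-06). AT1G19530 read 9.64, 11.68 and 12.03 in WT and 4.84, 7.78 and 8.30 in tor, a difference of -4.15 ± 0.88 (adjusted p = 0.00595). The adjacent gene AT1G19540 had the same order of arrays, at 10.38, 11.56 and 12.09 in WT and 6.70, 8.03 and 8.55 in tor. In both neighbours array 1 was the lowest array of its genotype, and the groups did not overlap, as the rule that named them required. The gene tny (TINY), an AP2/ERF transcription factor that limits growth when overexpressed, read 9.34, 8.57 and 8.50 in WT and 5.38, 5.11 and 5.21 in tor, a difference of -3.57 ± 0.22. AT4G39675, AT2G41990, AT4G25580, AT5G11070 and AT3G16120 differed by -3.95, -3.72, -3.45, -3.42 and -3.37. With ROXY2, all 20 genes of both ends passed in both normalizations with any 1 of the 6 arrays left out.

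**Figure D4:**
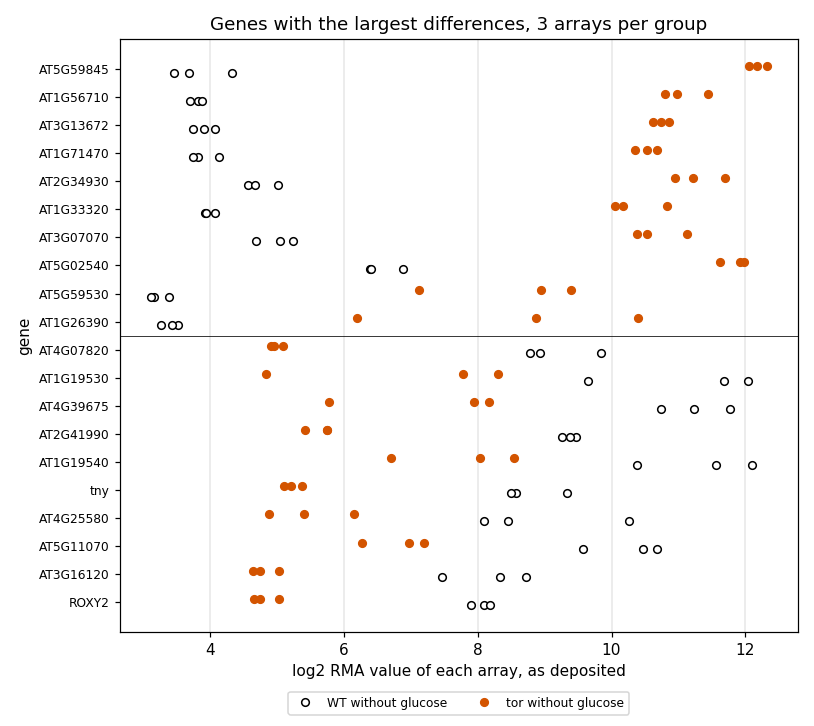
Log2 RMA value as deposited on each array (horizontal axis) for the 10 named genes with the highest and the 10 with the lowest difference (vertical axis, separated by a line), with 3 WT arrays as open and 3 tor arrays as filled points. The groups do not overlap for any of these genes, as the rule that named them required, and tor spreads most for AT1G26390, from 6.20 to 10.39.

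Some large differences passed only in 1 normalization. As deposited, AT5G06730, the beta-glucosidase gene BGLU27 and AT5G38710 passed with differences of 2.81 ± 0.96, 2.42 ± 0.79 and 2.40 ± 0.80. After the second quantile normalization they missed, with adjusted p of 0.0577, 0.0531 and 0.0581, and with the block they passed there too, with 0.0183, 0.016 and 0.00905. BGLU27 read 4.04, 3.86 and 3.88 in WT and 4.38, 7.30 and 7.36 in tor, so that tor array 1 was close to WT. As deposited all 3 calls were lost without any array but tor array 1, with highest adjusted p of 0.165, 0.15 and 0.163. Only after the second quantile normalization did AT1G10340, AT1G27480 and AT5G20740 pass, with differences of -2.03, -1.73 and -1.73. Their adjusted p as deposited was 0.0571, 0.0558 and 0.0547, and 0.00765, 0.0014 and 0.00506 with the block, and 4, 5 and 3 arrays were needed for the quantile calls.

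The same genotypes with glucose, on 6 other arrays, gave 9418 calls (41.4%) as deposited, 5776 higher (25.4%) and 3642 lower (16.0%). After the second quantile normalization they gave 9212 (40.5%), 4560 higher (20.0%) and 4652 lower (20.5%), and in both normalizations 19.8% were higher and 15.8% lower. These arrays are not fully independent of those without glucose, since the deviations of same-numbered tor arrays with and without glucose correlated at 0.68 to 0.86. Both comparisons also share the same estimate of the spread. Of the 3069 probe sets higher in tor without glucose, 2283 (74.4%) were also called higher with it in both normalizations and 29 were called lower. Of the 1899 lower ones, 1134 (59.7%) were called lower with glucose and 33 were called higher. Of the 8095 called with glucose in both normalizations, 3417 (42.2%) were called in the same direction without it.

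Among differences of at least 8-fold, 54 of 58 higher and 21 of 36 lower probe sets were called the same way with glucose. AT5G59845 and AT1G56710 differed by 8.35 and 7.27 without glucose and by 7.90 and 7.30 with it. The factor tny differed by -3.57 in both. PAP85, AT1G19530 and AT4G25580 differed by -3.09, -4.15 and -3.45 without glucose and by -0.52, 0.34 and 0.26 with it. AT1G19530 read 4.92, 4.54 and 5.02 in WT with glucose, against 9.64 to 12.03 in WT without it. The median of the 106 ribosomal protein genes differed by -0.53 without glucose and -1.19 with it, and that of the autophagy probe sets by 0.50 and 1.12.

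**Figure D5:**
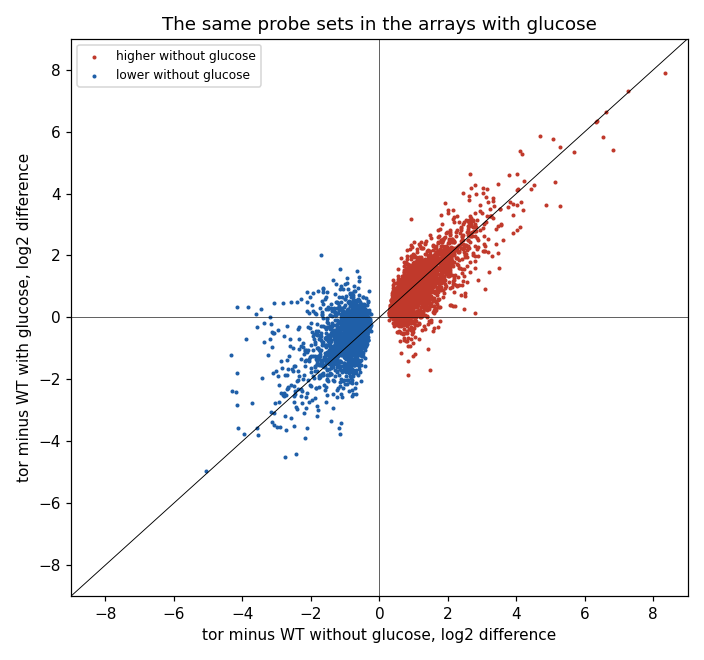
Log2 difference between tor and WT as deposited with glucose (vertical axis) against the difference without glucose (horizontal axis) for the 3069 probe sets called higher (red) and 1899 called lower (blue) without glucose in both normalizations, with the line of equal differences. The highest point, AT5G59845 at 8.35 and 7.90, lies near the line, AT3G13672 at 6.83 and 5.39 and AT5G02540 at 5.28 and 3.59 lie below it, and some of the lowest, such as AT1G19530 at -4.15 and 0.34, lie near 0 with glucose.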

How the data were processed

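RMA made the expression values, per the submitters' processing notes, which give no version. The authors' deposited table holds 1 log2 value per probe set and array. No source used here says if WT and tor arrays were normalized in 1 run. Of 22810 probe sets, 64 controls were left out. Of 22746 tested, 13513 carry 1 gene, 503 several and 8730 none, and 13436 were named through the platform's Entrez IDs and RefSeq's table (TAIR10.1). Groups and replicate numbers come from the labels. No sequence is shown, since no genome or sequence table was used.

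A linear model with 4 group means was fitted to each probe set over all 12 arrays (limma 3.58.1, R 4.3.3), on the values as deposited and after a second quantile normalization. The contrast is tor minus WT without glucose, two-sided, Benjamini-Hochberg over all probe sets, threshold 0.05. Errors are the model's SE as deposited. P-values rest on 1 estimate of the spread per probe set, pooled over the 3 arrays of each of the 4 groups, those with glucose included. The spread of the 6 compared arrays is thus not measured by itself. For RAPTOR1 the adjusted p as deposited was 0.0052 over 12 arrays and 0.0185 in the fit of the 6 arrays alone. The small number of arrays per group limits the precision. The fit was also run on simulated data with noise independent between arrays. That run cannot show how the fit behaves where same-numbered arrays vary together, as they do here. Replicate numbers pair the arrays: after removal of group means, all 18 same-number pairs correlated at 0.199 to 0.863.

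Named genes are the 10 highest and 10 lowest with 1 gene, called in both normalizations without overlap, up to 4 called members per list (or the one with the smallest p), and up to 3 called in 1 normalization only. Members and lists were chosen with earlier results of these data known, and lists were matched by locus number from general knowledge, a symbol being printed only where the platform or RefSeq gives it. A few members of lists are named beyond this rule, after their values were seen. Alternatives were median centring, the block, 6 arrays only, a filter, a variance trend and arrays left out. The authors' deposited comparisons of glucose with none were not used.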

Additional observations from a re-analysis of the deposited data

Results flagged for a closer look

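For 11 named genes, among 77 probe sets named by the rule, the difference between tor and WT changed with glucose in both normalizations (interaction term of the fit, adjusted p under 0.05 over all probe sets). Over all probe sets the term passed for 1220 (5.36%) as deposited and 1117 (4.91%) after the second quantile normalization. It passed in both for 4.76% of the probe sets higher in tor without glucose and 10.1% of the lower ones. The value given is the log2 difference without glucose minus that with it. It was 1.43 for AT3G13672, which differed by 6.83 without glucose and 5.39 with it. It was negative for the genes that were lower in tor without glucose and less so, or not, with it: -1.79 for AT4G07820, -3.27 for AT1G19540, -3.72 for AT4G25580, -2.57 for AT3G16120 and -2.02 for ROXY2. AKINBETA1 gave -2.69, with a difference of -1.14 without glucose and 1.55 with it. AT3G15460 gave 3.20 (1.49 without glucose, -1.71 with it), XTH19 gave 2.26 (0.84 and -1.42), ICU2 gave 2.38 (-0.78 and -3.17) and SDH1-1 gave 0.90 (0.72 and -0.18).
The interaction term uses the same arrays without glucose by which these genes were named, so the values are given as a description.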

How the results depend on the processing

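As deposited, 6408 probe sets were called, 4438 higher and 1970 lower in tor. The 1970 lower calls became 3020 after the second quantile normalization, 4759 with median centring (2344 higher), 3122 with the replicate block, 4519 with the block after the second quantile normalization, and 1238 among probe sets with a mean of at least 6. The 6 arrays alone gave 4697 calls as deposited, 3315 higher and 1382 lower. Some named genes were not called in that fit, such as LHCB4.2 (adjusted p = 0.0669) and the dimmer probe set of GAT1_2.1 (adjusted p = 0.0679). Quantile normalized among themselves, the 6 arrays gave 4247 calls, 2241 higher. With 1 array left out, the calls ranged from 3973 to 6942, the higher from 2085 to 4550 and the lower from 1204 to 3480, over both normalizations. After the second quantile normalization the higher calls were 2523, 2400 and 2430 without WT arrays 1, 2 and 3 and 2175 without tor array 3, which left 4174 calls. Without the 4 arrays of a replicate number, an alternative chosen after seeing the data, the calls were 7667, 1429 and 2396 for numbers 1, 2 and 3, with 4916, 1038 and 1778 higher and 2751, 391 and 618 lower. Among named genes the sign reversed for ALATS (-0.15 centred and -0.013 without number 2, against 0.24 without tor array 1), RPN12a (-0.057 centred) and the brighter probe set of GAT1_2.1 (0.021 without tor array 1 after the second quantile normalization), of which 0 were called. The cause was not tested. Beyond the genes given with a blocked p in the results, the replicate block changed no other call among the genes named by the rule, each normalization set against itself. A search for promoter motifs was planned and not run. With 3 arrays per group, small differences of dim probe sets could not be resolved.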
